A study of Mus musculus with 12 samples.

Results

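Thymic epithelium was followed here through 10 genes in 12 thymic T-cell lymphomas of mice. The genes are Foxn1, Pax1, Pax9, Psmb11, Prss16, Ccl25, Krt8, Krt5, Epcam and Cldn4. They were chosen by symbol, as genes of thymic epithelial cells together with Cldn4, and make up 10 of the 37991 genes in the count table. Each was found once, under its own Ensembl identifier, and all 10 passed the filter on low counts. The comparison asks how tumours that resisted genetic p53 restoration differ from tumours that responded.

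All mice were of the C57BL/6 background and of the genotype p53neo/R172H;R26CreER/GNZ. Every animal therefore carried the R172H mutant allele of p53 beside the neo allele, and every tumour-bearing mouse received weekly tamoxifen by intraperitoneal injection, which switched on the Cre recombinase and restored wild-type p53. Response was read from magnetic resonance imaging as shrinkage or growth, and tumours were taken after the last scan. There were 8 responder and 4 non-responder tumours. Age at harvest and the interval since the first tamoxifen dose are not given in the labels used here. All tumours compared came from treated mice, the groups are told apart in the labels by response alone, and the tumours are described as independent.

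Each tumour gave 1 RNA-seq library of 20796860 to 30265753 counts. No library repeated another: the lowest chi-square per degree of freedom over all pairs was 58.8. T-cell genes were present in all 12 tumours, with Cd3e, a chain of the T-cell receptor complex, at 27.7 to 165.7 CPM. CPM are counts scaled to a common library total, here after scaling by the trimmed mean of M values. Means are given ± SD over the 8 responders or the 4 non-responders. The log2 ratio is the fitted log2 fold change, non-responder over responder, with its standard error (SE). Adjusted p-values come from the quasi-likelihood test of edgeR over all 18612 genes tested, with a threshold of 0.05, unless another tool is named.

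The thymic epithelium is the scaffold in which T cells mature. Cortical epithelial cells attract progenitors and present the peptides on which immature thymocytes are positively selected, and medullary epithelial cells display tissue antigens that delete self-reactive cells. The lineage arises from the pharyngeal endoderm under paired-box factors and depends on the transcription factor FOXN1, whose loss causes the athymic nude phenotype. Keratin 8 is typical of cortical and keratin 5 of medullary cells. In a lymphoma that fills the thymus, transcripts of these genes can come from what remains of the epithelium, and in a bulk sample fewer epithelial cells and less RNA per cell cannot be told apart.

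The mean level was lower in non-responders for 9 of the 10 members, by very little for Psmb11, and higher for Cldn4. A log2 ratio below 0 was found in 51.5% of all genes tested. No member passed the threshold in edgeR, as was the case for all 18612 genes tested (0.0% called). At an unadjusted p under 0.05, which 23.8% of all genes tested reached, 6 of the 10 members were lower (Pax1, Pax9, Prss16, Ccl25, Krt8 and Krt5) and 1, Cldn4, was higher in non-responders. For reference, 16.1% of all genes tested were lower and 7.73% higher at that level. DESeq2, which called 13.3% of all genes, called 4 members as lower (Pax1, Pax9, Prss16 and Ccl25), in a background of 10.5% called lower, and Cldn4 as higher, in a background of 2.82%. limma-voom called Pax1 and Pax9 as lower, with 9.26% of all genes called, 4.71% as lower and 4.55% as higher, and Cldn4 as higher. In the exact two-sided permutation test over tumours, the same 7 members as in edgeR had an unadjusted p under 0.05, as did 19.9% of all genes (8.31% higher, 11.6% lower), and 0 genes passed after adjustment. The median log2 ratio was -1.76 over the 10 members and -0.02 over all genes tested. The CPM of the groups overlapped for all 10 members, while 2.13% of all genes tested had groups without overlap.

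**Figure D1:**
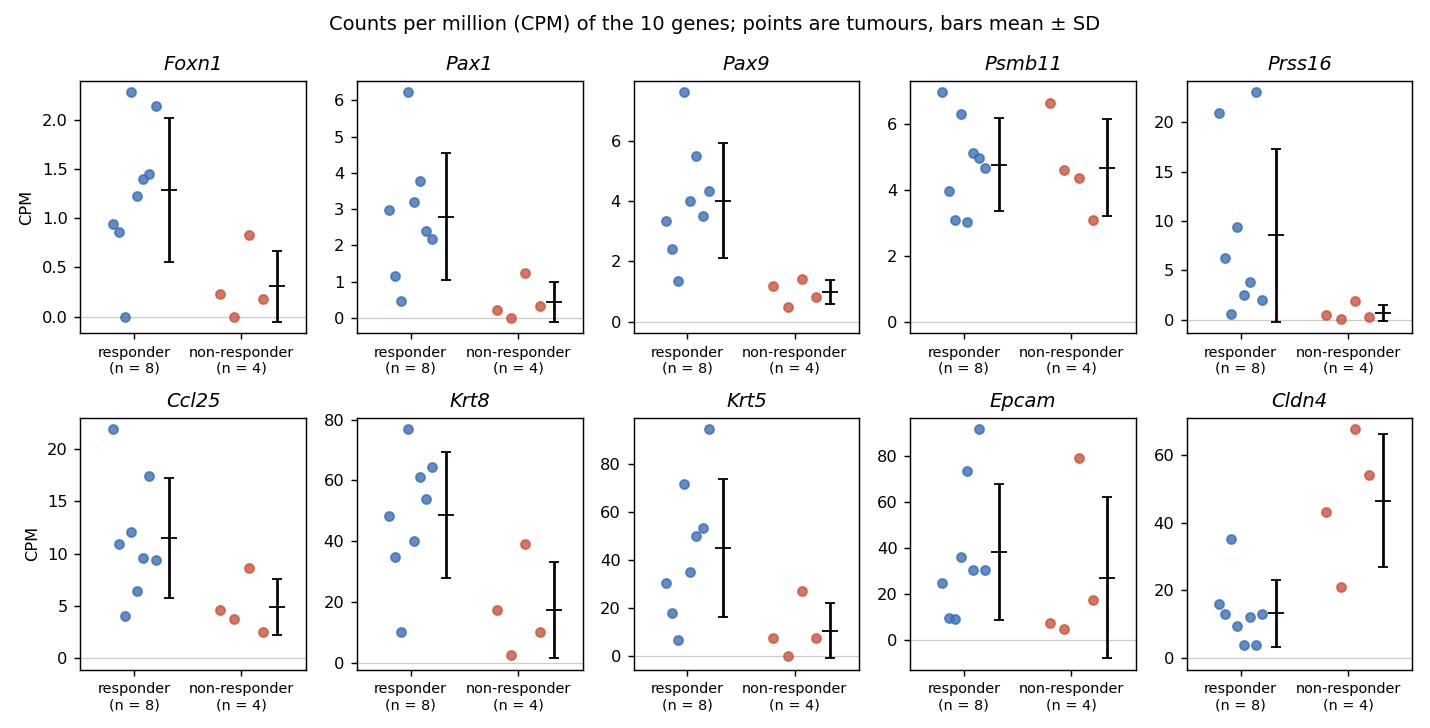
CPM (y axis, linear, with its own range per panel) of the 10 genes in 8 responder and 4 non-responder tumours; points are tumours and bars the mean ± SD of the group. Responders lie mostly above the non-responders for Foxn1, Pax1, Pax9 and Prss16, the group means of Psmb11 are close, and Cldn4 runs from 3.81 to 35.2 CPM in responders and from 21.1 to 67.5 CPM in non-responders.

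The transcription factors that specify the lineage were the least abundant members. Foxn1, on chromosome 11 from 78357577 to 78386558 (GRCm38), ran from 0 to 2.28 CPM in the 8 responders with a median of 1.31 CPM. In non-responders 1 to 4 it was at 0.229, 0, 0.828 and 0.182 CPM. Foxn1 had no count in responder 3 and in non-responder 2, where 3 counts, the most that a count of 0 allows, would be 0.127 and 0.147 CPM. The other 7 responders were all above the 4 non-responders. Responders averaged 1.29 ± 0.728 CPM against 0.31 ± 0.36 CPM for non-responders, and the log2 ratio was -2.04 (SE 0.97, edgeR adjusted p = 0.22). Without non-responder 3 it was -3.15.

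Pax1 and Pax9 encode paired-box transcription factors of the pharyngeal pouch from which the thymus forms. Pax1 (chromosome 2, 147361925 to 147393295) ran from 0.464 to 6.21 CPM in responders, with a median of 2.68 CPM. Its level was 0.229, 0, 1.24 and 0.318 CPM in non-responders 1 to 4. Non-responder 3 thus lay above responders 2 and 3, and the other 6 responders above all non-responders. The log2 ratio of Pax1 was -2.63 (SE 0.89, edgeR adjusted p = 0.124; DESeq2 adjusted p = 0.0103). It was -3.86 without non-responder 3.

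Pax9 (chromosome 12, 56691767 to 56712822) was the member with the smallest p. It ran from 1.35 to 7.61 CPM in responders with a median of 3.76 CPM, and was at 1.19, 0.49, 1.43 and 0.817 CPM in non-responders 1 to 4. Responder 3 was the sole responder within the range of the non-responders. The log2 ratio was -2.02 (SE 0.48, edgeR adjusted p = 0.117; DESeq2 adjusted p = 0.00072; limma-voom adjusted p = 0.0326). Pax9 shares 189 exonic bases with Slc25a21, and Pax1 shares 183 with AI646519, each on the opposite strand. Nothing states whether counting used strand, so reads in those bases cannot be assigned to either gene.

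The other genes of the lineage's early programme had the same sign. In the list of 12 specification genes, which holds Foxn1, Pax1 and Pax9, all 12 had a negative log2 ratio (median -2.35), 9 of them at an unadjusted edgeR p under 0.05 and 0 past the adjusted threshold, while DESeq2 called 8 and limma-voom 7 as lower. Six4, a homeobox gene, was at 3.34 ± 2.17 CPM in responders against 0.692 ± 0.352 for non-responders (log2 ratio -2.26, SE 0.64, edgeR adjusted p = 0.117). Isl1, a LIM-homeobox gene, was at 3.56 ± 2.74 and 0.472 ± 0.522 CPM (-2.90, SE 0.86). Trp63, which encodes the p53 relative that maintains epithelial progenitors, was picked out after its values were seen, at 12.4 ± 7.66 and 2.29 ± 2.51 CPM (-2.43, SE 0.81, edgeR adjusted p = 0.123). In all of these genes the 2 groups overlapped.

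Psmb11 encodes the catalytic subunit of the thymoproteasome, an enzyme complex found in cortical thymic epithelium. Its group means were close, at 4.77 ± 1.41 CPM for responders and 4.68 ± 1.48 CPM for non-responders. Psmb11 (chromosome 14, 54621433 to 54629556) ran from 3.03 to 6.97 CPM in responders with a median of 4.84 CPM, and was at 6.65, 4.61, 4.37 and 3.09 CPM in non-responders 1 to 4. The fitted log2 ratio was -0.03 (SE 0.31, edgeR adjusted p = 0.963), with a sign that turned under 3 alternatives and on leaving out responder 1, responder 4, non-responder 3 or non-responder 4. Responder 3 and non-responder 2, which had no Foxn1 count, still held 73 and 94 Psmb11 counts. Per kilobase of exon, Psmb11 was at 0.99 ± 0.285 CPM over the 12 tumours (SD), against 62.9 ± 16.2 for Psmb5, its counterpart in the standard proteasome, and 49.5 ± 10.4 for Psmb8, its counterpart in the immunoproteasome. Neither Psmb5 (log2 ratio 0.24, SE 0.23) nor Psmb8 (0.03, SE 0.19) passed.

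Prss16, which encodes the thymus-specific serine protease of cortical epithelium, lies on chromosome 13 from 22002173 to 22009742. Prss16 ran from 0.548 to 23.0 CPM in responders with a median of 5.03 CPM, and responders 1 and 7, at 20.9 and 23.0 CPM, stood well above the third highest, responder 4, at 9.40 CPM. In non-responders 1 to 4 it was at 0.505, 0.049, 1.89 and 0.227 CPM, the second of these resting on 1 count. Responder 3 again lay among the non-responders. Its log2 ratio was -3.67 (SE 1.15, edgeR adjusted p = 0.118; DESeq2 adjusted p = 0.00272). Leaving out non-responder 3 gave -4.985.

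Ccl25 encodes the chemokine that draws CCR9-bearing progenitors and thymocytes to the cortical epithelium. Ccl25 (chromosome 8, 4325210 to 4360020) ran from 4.05 to 21.9 CPM in responders with a median of 10.3 CPM. Its level was 4.59, 3.78, 8.65 and 2.54 CPM in non-responders 1 to 4, and responders 3 and 5 lay within that range. The log2 ratio was -1.23 (SE 0.46, edgeR adjusted p = 0.142; DESeq2 adjusted p = 0.0476). In the tumours with no Foxn1 count Ccl25 had 96 counts (responder 3) and 77 (non-responder 2). All other members had counts there as well, except Pax1 in non-responder 2. Ccr9, the receptor gene, which the rule for named genes does not cover, was at 64.4 ± 54.0 CPM in responders against 45.2 ± 58.7 for non-responders (-0.51, SE 0.99, edgeR adjusted p = 0.785), and varied from 1.42 to 143.4 CPM between tumours.

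The promoter windows of Psmb11 and Ccl25, both known targets of FOXN1, are shown because the group means of Psmb11 were close and Ccl25 has 2 annotated starts. RefSeq start sites on GRCm38.p6 were used, with 250 bases before and 50 after the start, and 9 of the 10 members had such a window, Ccl25 having 2. Capitals mark GACGC, the core motif described for FOXN1, on either strand, and TATAAA, the TATA box, on either strand. The windows are Psmb11 at chr14:54625060-54625359 (plus strand), the upstream start of Ccl25 at chr8:4324960-4325259 and its downstream start at chr8:4349338-4349637 (both plus strand).
Psmb11: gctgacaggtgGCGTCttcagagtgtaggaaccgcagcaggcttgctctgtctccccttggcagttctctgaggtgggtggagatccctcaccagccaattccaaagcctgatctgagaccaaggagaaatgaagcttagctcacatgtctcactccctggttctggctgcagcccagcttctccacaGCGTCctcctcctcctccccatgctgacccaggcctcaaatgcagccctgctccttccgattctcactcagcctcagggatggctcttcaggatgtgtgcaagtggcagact
Ccl25, upstream: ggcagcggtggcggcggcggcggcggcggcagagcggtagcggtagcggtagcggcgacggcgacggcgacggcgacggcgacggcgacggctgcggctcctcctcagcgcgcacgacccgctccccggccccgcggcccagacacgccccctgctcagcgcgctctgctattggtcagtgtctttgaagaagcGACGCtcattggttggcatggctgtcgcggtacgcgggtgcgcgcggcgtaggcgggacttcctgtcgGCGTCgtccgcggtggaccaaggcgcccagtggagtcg
Ccl25, downstream: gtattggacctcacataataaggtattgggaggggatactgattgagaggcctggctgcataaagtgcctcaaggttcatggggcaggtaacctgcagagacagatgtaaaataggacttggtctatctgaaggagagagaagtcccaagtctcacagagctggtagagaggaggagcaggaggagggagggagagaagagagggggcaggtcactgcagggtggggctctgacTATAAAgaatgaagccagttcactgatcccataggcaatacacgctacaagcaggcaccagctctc

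Both Psmb11 and the upstream Ccl25 window held 2 matches to GACGC, and the downstream Ccl25 window none, where 27.2% of the 32851 promoter windows held at least 1. The downstream Ccl25 window held 1 TATAAA, which 13.6% of all windows held. The bases G and C made up 74.0% of the upstream and 51.7% of the downstream Ccl25 window. The upstream end of Ccl25 shares 204 exonic bases with Elavl1, an RNA-binding protein gene on the opposite strand. The counts are per gene and do not separate transcripts of the 2 starts. A match to so short a motif is a description of the letters and not of binding.

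Other genes of cortical epithelium mostly had lower means in non-responders, with Ly75 as the exception. Of the 12 genes on the cortical list, which holds Psmb11, Prss16, Ccl25 and Krt8, 11 had a negative log2 ratio (median -1.37), with 8 lower and 1 higher at an unadjusted edgeR p under 0.05 and 0 past the adjusted threshold. DESeq2 called 6 and limma-voom 3 as lower. Enpep, which encodes the Ly51 antigen of cortical epithelium and is also made by other stromal cells, was at 5.80 ± 3.74 CPM in responders against 0.871 ± 0.454 for non-responders without overlap (log2 ratio -2.73, SE 0.62, edgeR adjusted p = 0.117). Groups without overlap in this direction made up 1.18% of all genes tested. Kitl, the gene of stem cell factor, was at 16.1 ± 9.05 and 5.72 ± 1.48 CPM (-1.50, SE 0.45). Ly75, which encodes the DEC-205 receptor and is also expressed by dendritic cells and lymphocytes, was at 48.6 ± 10.8 CPM in responders against 68.3 ± 16.2 for non-responders (0.49, SE 0.21, edgeR adjusted p = 0.184).

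Krt8 encodes a keratin of simple epithelia, which in the thymus marks the cortex. Per kilobase of exon it had the highest mean of the 10 members, at 19.5 ± 12.3 CPM over the 12 tumours (SD). Epcam followed at 15.7 ± 13.8, Krt5 at 15.2 ± 13.2 and Cldn4 at 13.4 ± 11.5, with SDs larger than the differences between these 4 means. Next came Prss16 at 1.42 ± 1.91, Ccl25 at 1.25 ± 0.779 and Psmb11 at 0.99 ± 0.285. The factors Pax9, at 0.594 ± 0.424, Pax1, at 0.448 ± 0.409, and Foxn1, at 0.299 ± 0.242, were lowest. The SD is the spread between tumours, and differences between genes were not tested. Exon lengths are those of GENCODE M21, which need not be those used in counting.

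Krt8 (chromosome 15, 101996698 to 102004482) ran from 10.1 to 76.8 CPM in responders with a median of 51.0 CPM. It was at 17.3, 2.65, 39.2 and 10.2 CPM in non-responders 1 to 4, so that responders 2 and 3 lay within the range of the non-responders and the other 6 above it. The fitted log2 ratio was -1.49 (SE 0.61, edgeR adjusted p = 0.169), and without non-responder 3 it was -2.25. A pseudogene of Krt8 is annotated, so reads that match both are uncertain. Krt8 also shares 101 exonic bases with Gm36026, and Krt5 shares 129 with Gm44323, each on the opposite strand. As strand use is not stated, reads in those bases cannot be assigned to either gene.

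Krt5 encodes the basal keratin that marks medullary epithelium in the thymus. Krt5 (chromosome 15, 101707070 to 101712898) ran from 6.54 to 94.3 CPM in responders with a median of 42.5 CPM. It was at 7.48, 0.196, 26.9 and 7.49 CPM in non-responders 1 to 4, the second of these from 4 counts. Non-responder 2 was the lowest of all 12 tumours and non-responder 3 lay above responders 2 and 3. Its log2 ratio was -2.09 (SE 0.90, edgeR adjusted p = 0.182), and it was -3.11 without non-responder 3 and -3.12 in limma-voom. Of the 12 keratins listed, 10 were tested and 9 of these had a negative log2 ratio (median -1.35), with 6 lower at an unadjusted p under 0.05 and 0 past the adjusted threshold, and 2 called by DESeq2 and 1 by limma-voom. Among those 6 was Krt4, high in responder 3 alone as described below, with a log2 ratio of -5.22 (SE 2.01) in edgeR and -1.46 in DESeq2. Krt10, a keratin of layered epithelium, had the positive value (0.43, SE 0.32). Krt18, the partner of keratin 8, was at 46.1 ± 23.8 and 10.6 ± 8.96 CPM (-2.12, SE 0.67, edgeR adjusted p = 0.118), and Krt7 at 10.1 ± 4.88 and 3.92 ± 2.39 CPM (-1.36, SE 0.52).

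Responder 3 carried keratins that the other tumours all but lacked. Krt4 and Krt13, the keratin pair of the non-cornified squamous lining of the oesophagus and mouth, were at 43.7 and 47.2 CPM in responder 3. In the other 11 tumours Krt4 was at no more than 0.745 CPM and Krt13 at no more than 0.415 CPM. Krt13 was named after its values were seen and did not pass the filter on low counts. In the same tumour Foxn1 had no count, and Krt5 and Krt8, at 6.54 and 10.1 CPM, were the lowest among responders. Where the epithelial transcripts of this tumour come from was not tested.

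**Figure D2:**
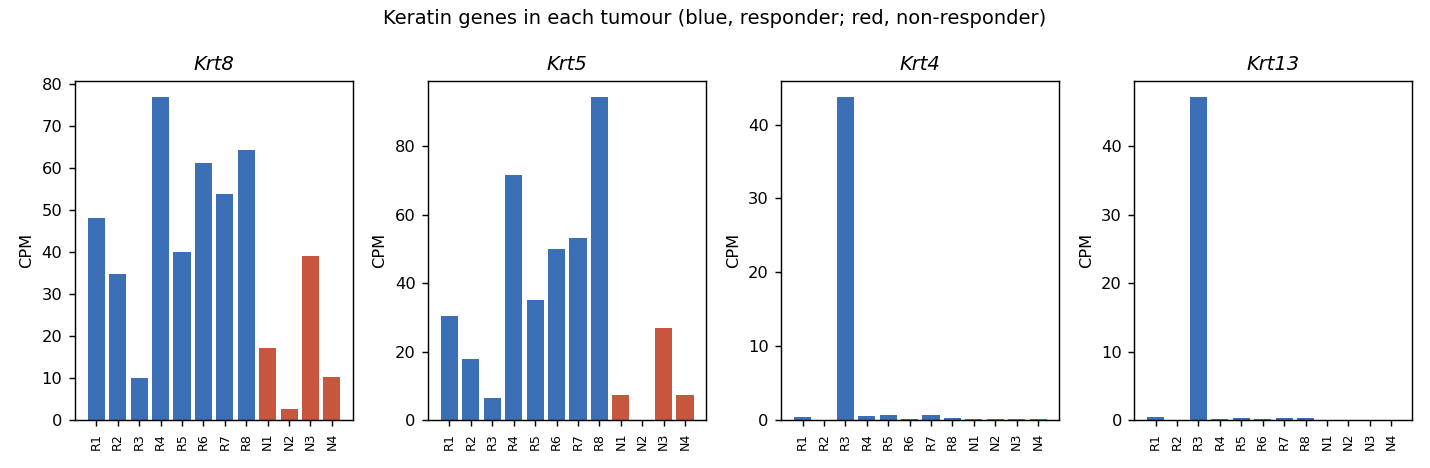
CPM (y axis, from 0) of Krt8, Krt5, Krt4 and Krt13 in responders 1 to 8 (R1 to R8) and non-responders 1 to 4 (N1 to N4), 1 bar per tumour. Krt8 and Krt5 are low in responder 3, at 10.1 and 6.54 CPM, where Krt4 and Krt13 reach 43.7 and 47.2 CPM.

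Of the 12 medullary genes listed, 11 had a row in the table and 10 were tested, of which 8 had a negative log2 ratio (median -1.25). At an unadjusted edgeR p under 0.05, 4 were lower and 1, Cldn4, was higher, and 0 passed the adjusted threshold, while DESeq2 called 2 and limma-voom 1 as lower. Ccl19, a chemokine gene that reticular stroma also expresses, was at 1.40 ± 1.01 and 0.163 ± 0.0586 CPM without overlap (-3.07, SE 0.70, edgeR adjusted p = 0.117). Tnfrsf11a, the gene of the RANK receptor through which lymphoid cells drive medullary growth, was at 15.2 ± 6.42 and 7.49 ± 1.73 CPM (-1.02, SE 0.37). Aire, the regulator of tissue antigens in the medulla, was singled out after its values were seen and was at 9.18 ± 5.53 CPM in responders against 3.93 ± 2.99 for non-responders (-1.22, SE 0.70, edgeR adjusted p = 0.298). Aire was present in every tumour, with its lowest values, 0.928 and 0.932 CPM, in responder 3 and non-responder 2.

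Thymic tuft cells, chemosensory cells of the medulla, were represented by 6 genes, of which 5 were tested and all 5 had a negative log2 ratio (median -2.30). Of these, 4 were at an unadjusted edgeR p under 0.05 and 0 passed the adjusted threshold, and DESeq2 called 4 and limma-voom 1. Avil, an actin-binding gene of tuft cells, was at 9.39 ± 9.84 and 1.10 ± 0.905 CPM (-3.08, SE 1.02, edgeR adjusted p = 0.122), and Pou2f3, the tuft-cell regulator, at 1.02 ± 0.904 and 0.105 ± 0.152 CPM (-3.22, SE 1.15). Dclk1, which other tissues also express, was at 25.0 ± 17.9 and 6.50 ± 1.002 CPM (-1.94, SE 0.54).

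Epcam encodes a cell adhesion protein of most epithelia, which some lymphoid cells also make. Epcam (chromosome 17, 87635979 to 87651129) ran from 9.20 to 91.7 CPM in responders with a median of 30.5 CPM. It was at 7.48, 4.56, 79.2 and 17.2 CPM in non-responders 1 to 4, so non-responder 3 was above every responder but responder 7. The log2 ratio was -0.50 (SE 0.77, edgeR adjusted p = 0.723), and 1 tumour set its size, since it was -1.94 without non-responder 3. Over the 12 tumours Epcam had a Spearman's rho of 0.783 with Krt5 and 0.706 with Krt8. Its sign turned with the level of double-positive thymocyte genes as a covariate (0.63) and with that of other-cell genes (0.07).

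Other genes shared by epithelia mostly had lower means in non-responders, as the keratins did. Of the 16 genes on the general epithelial list, Epcam included, 14 had a negative log2 ratio (median -1.48), 11 of them at an unadjusted edgeR p under 0.05 and 0 past the adjusted threshold, and DESeq2 called 7 and limma-voom 4 as lower. Spint1, a protease inhibitor gene, was at 9.25 ± 5.10 and 1.90 ± 0.913 CPM (-2.28, SE 0.59, edgeR adjusted p = 0.117). Ehf, an ETS factor gene of epithelia, was at 18.9 ± 12.9 and 3.62 ± 2.41 CPM (-2.39, SE 0.75), and the tight-junction gene Ocln at 1.61 ± 1.06 and 0.365 ± 0.169 CPM (-2.14, SE 0.70). The 2 genes with a positive value, named here after it was seen, were Esrp2 (0.14, SE 0.38) and Grhl2, the gene of a grainyhead factor of epithelial junctions. Grhl2 was at 12.1 ± 7.02 CPM in responders against 27.1 ± 10.8 for non-responders (1.16, SE 0.44, edgeR adjusted p = 0.146), and limma-voom called it higher.

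**Figure D3:**
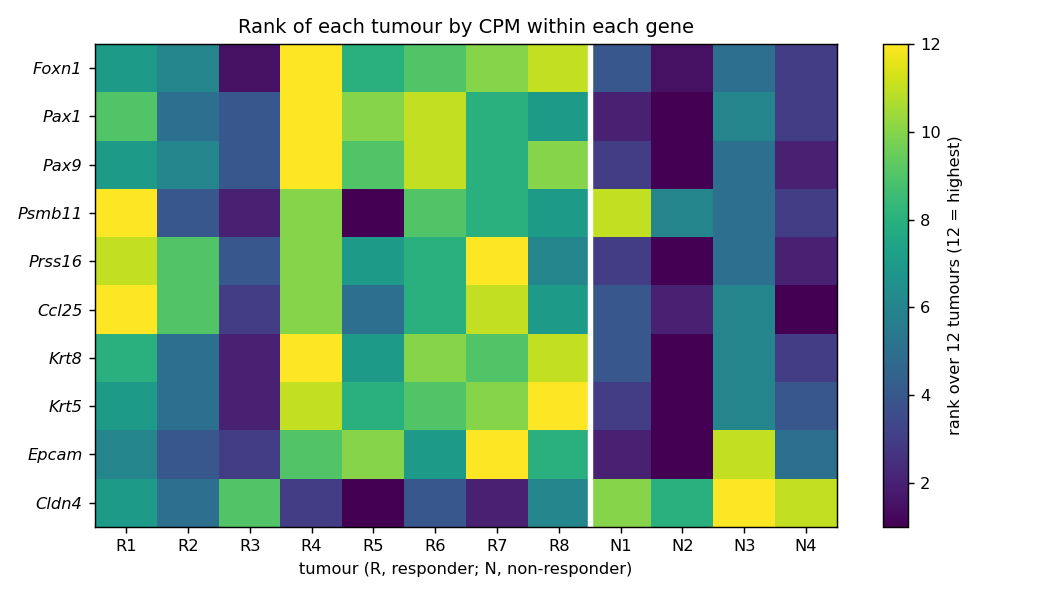
Rank of each tumour by CPM within each gene (rows, 12 being the highest) for responders 1 to 8 (R1 to R8) and non-responders 1 to 4 (N1 to N4). Non-responder 2 is the lowest tumour for 7 of the 10 genes, responder 4 is the highest for 4, and the row of Cldn4 runs against the rows of Foxn1, Pax1, Pax9 and Krt5.

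The order of the tumours was much alike for Foxn1, Krt8, Krt5 and Pax9, and least like theirs for Psmb11 and Cldn4. Non-responder 2 was the lowest of the 12 tumours for 7 of the 10 members, for Foxn1 in a tie with responder 3, as neither had a count. It had the lowest mean rank over the 9 members without Cldn4, at 1.67, where tied tumours were given the lower rank. Responder 3 followed at 2.78 and non-responder 4 at 2.89, while responder 4 had the highest mean rank, 10.9, and was highest for 4 members. Non-responder 3, at 6.11, lay above responder 2, at 5.89. The genes most like Foxn1 over the 12 tumours by Spearman's rho of log2 CPM were Lpo (0.991), Spint1 (0.984), Krt8, Foxd3 and Krt7 (each 0.977), and Krt5 also had 0.977. Pax9 had 0.935, Pax1 0.844, Prss16 0.76, Ccl25 0.746 and Epcam 0.715, whereas Psmb11 had 0.399 and Cldn4 -0.725. Those most like Epcam were Acad11 (0.937), Tmem30b (0.93), Sec22a (0.923), Gaa (0.923) and Irs1 (0.895). These are rankings of likeness given without a test, over tumours that Rag1 divides as described below for Cldn4. Spearman's rho with Rag1 was -0.76 for Foxn1, -0.441 for Epcam and 0.867 for Cldn4.

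Cldn4 encodes claudin 4, a tight-junction protein. In the thymus it marks medullary epithelial cells, and it is also described in double-positive thymocytes, the cortical T cells that carry both CD4 and CD8, where its induction depends on E proteins. Cldn4 (chromosome 5, 134945119 to 134946934) ran from 3.81 to 35.2 CPM in responders with a median of 12.5 CPM. It was at 43.2, 21.1, 67.5 and 54.1 CPM in non-responders 1 to 4. Responder 3, at 35.2 CPM, was the sole responder within the range of the non-responders, and the other 7 were below it. Responders averaged 13.3 ± 9.87 CPM against 46.5 ± 19.6 CPM for non-responders. The fitted log2 ratio was 1.80 (SE 0.50, edgeR adjusted p = 0.117; DESeq2 adjusted p = 0.0125; limma-voom adjusted p = 0.0326), and it was between 1.58 and 2.19 with any 1 tumour left out.

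The promoter window of Cldn4 is shown because Cldn4 is the member with a higher mean in non-responders. It lies on the minus strand at chr5:134946885-134947184 (GRCm38.p6, RefSeq), and capitals mark CAGCTG and CACCTG on either strand, 2 forms of the E-box that E proteins bind.
Cldn4: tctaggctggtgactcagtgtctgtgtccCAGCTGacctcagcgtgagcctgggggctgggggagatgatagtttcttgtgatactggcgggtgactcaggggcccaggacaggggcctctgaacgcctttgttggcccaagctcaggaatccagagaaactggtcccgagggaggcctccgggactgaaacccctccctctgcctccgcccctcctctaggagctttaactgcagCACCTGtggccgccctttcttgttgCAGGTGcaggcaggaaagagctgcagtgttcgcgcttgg

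The window held 1 match to CAGCTG, as 16.3% of all windows did at least once, and 2 matches to CACCTG, which 20.2% of all windows held at least once. The windows of Foxn1, Krt8 and Krt5 also held 1 match to each. The grainyhead motif AACNNGTT, which 4.2% of all windows held, was in no member's window. No match says only that these letters are not within the window.

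**Figure D4:**
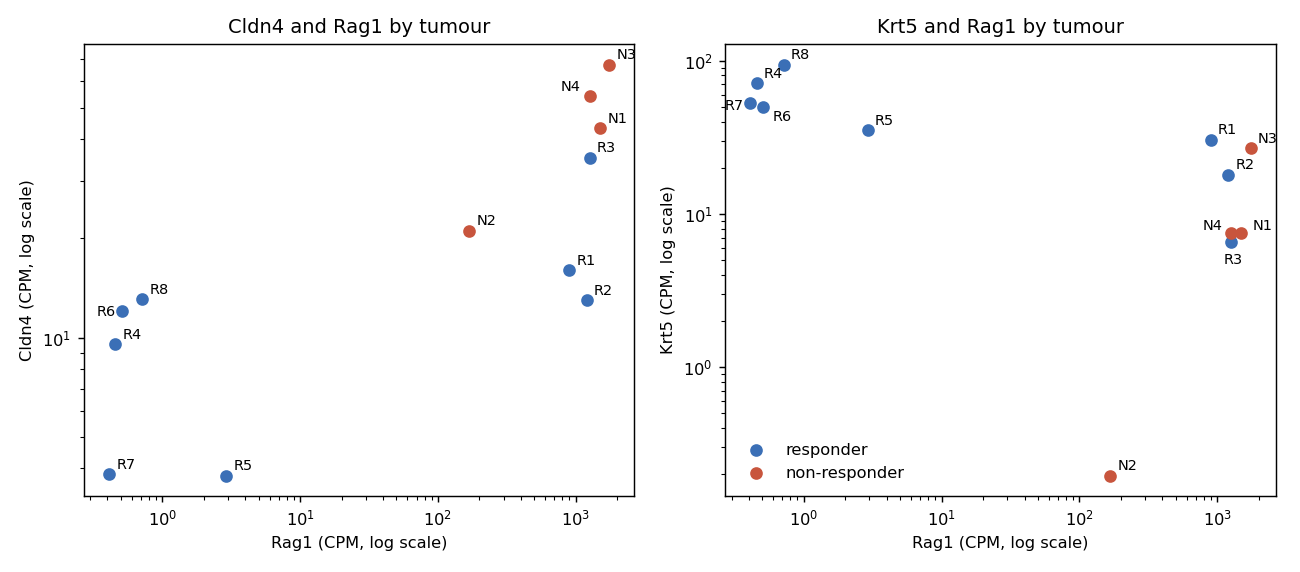
Cldn4 (left) and Krt5 (right) in CPM against Rag1 in CPM, all axes on a log scale, 1 point per tumour with its name (R, responder; N, non-responder). In the 5 tumours with Rag1 at or below 2.91 CPM Cldn4 is at 3.81 to 13.1 CPM and Krt5 at 35.0 to 94.3 CPM, and in the other 7 Cldn4 is at 13.0 to 67.5 CPM and Krt5 at 0.196 to 30.5 CPM.

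Rag1, which encodes a subunit of the recombinase that assembles T-cell receptor genes and is active in double-positive thymocytes, divided the responders. Responders 1 to 3 were at 895, 1204 and 1262 CPM and non-responders 1 to 4 at 1498, 167.9, 1756 and 1264 CPM. Responders 4 to 8 were at 0.41 to 2.91 CPM. In responders 1 to 3 Cldn4 was at 16.02, 13.0 and 35.2 CPM, and in responders 4 to 8 at 9.53, 3.81, 12.1, 3.84 and 13.1 CPM, so that responder 8 was level with responder 2. Krt5 went the other way, at 30.5, 18.0 and 6.54 CPM in responders 1 to 3 and at 71.4, 35.0, 49.9, 53.1 and 94.3 CPM in responders 4 to 8. Among the 7 tumours with Rag1 of 167.9 CPM or more, Krt5 overlapped between responders and non-responders, and Foxn1 did as well. With the tumours in 2 sets by Rag1, no relation across all 12 was tested. Non-responders 1 to 4 all fell in the set with high Rag1, and responders 4 to 8 made up the other. The group ratios over all 12 tumours therefore cannot be fully told apart from that division.

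With the mean level of 14 double-positive thymocyte genes as a covariate in edgeR, the log2 ratio of Cldn4 was 1.20 (adjusted p = 0.722). Under the same covariate Krt5 was at -0.87, Foxn1 at -1.10, Pax9 at -1.33, Pax1 at -1.83 and Prss16 at -4.02, none past the threshold. The covariate was at 2.09 to 3.76 in responders 4 to 8, at 7.04 to 7.79 in responders 1 to 3 and at 6.40 to 8.14 in non-responders. No non-responder had the low level of responders 4 to 8, so its part and that of response cannot be fully told apart by these ratios. All 14 of the double-positive thymocyte genes had a positive log2 ratio (median 1.16), though 0 of 14 had an unadjusted edgeR p under 0.05 and limma-voom called 4. The genes most like Cldn4 over the 12 tumours by Spearman's rho were Lmln (0.958), Pdzd3 (0.944), Cybrd1 (0.937), Rnf157 (0.937) and Tmem132b (0.936). Rag1 came at place 40 among the tested genes with a symbol, predicted genes left out, with 0.867, and Grhl2 had 0.713. Lmln, a metallopeptidase gene, was at 4.68 ± 1.64 CPM in responders against 9.42 ± 2.88 for non-responders (log2 ratio 1.01, SE 0.31, edgeR adjusted p = 0.118).

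Most other claudins tested had lower means in non-responders. The table held 32 claudin genes, of which 13 passed the filter and 8 had no count in any tumour. Of the 13 tested, 10 had a negative log2 ratio (median -1.27). The 3 with a positive one were Cldn4, Cldn10 (0.50, SE 0.42) and Cldn34c1 (0.65, SE 0.48). At an unadjusted edgeR p under 0.05, 7 claudins were lower and Cldn4 alone was higher, and 0 passed the adjusted threshold, while DESeq2 called 4 as lower. Cldn12 was at 9.05 ± 2.88 CPM in responders against 4.47 ± 1.76 for non-responders (-1.02, SE 0.35, edgeR adjusted p = 0.128), and Cldn5, the claudin of blood vessels, at 7.44 ± 6.53 and 2.17 ± 0.984 CPM (-1.78, SE 0.82). Cldn3, which marks medullary epithelium together with Cldn4, was at 2.02 ± 1.44 and 0.837 ± 0.14 CPM (-1.27, SE 0.59, edgeR adjusted p = 0.213), and Cldn7, a claudin of simple epithelia, at 2.43 ± 1.40 and 0.866 ± 0.323 CPM (-1.48, SE 0.57). These last 2 are named after their values were seen.

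**Figure D5:**
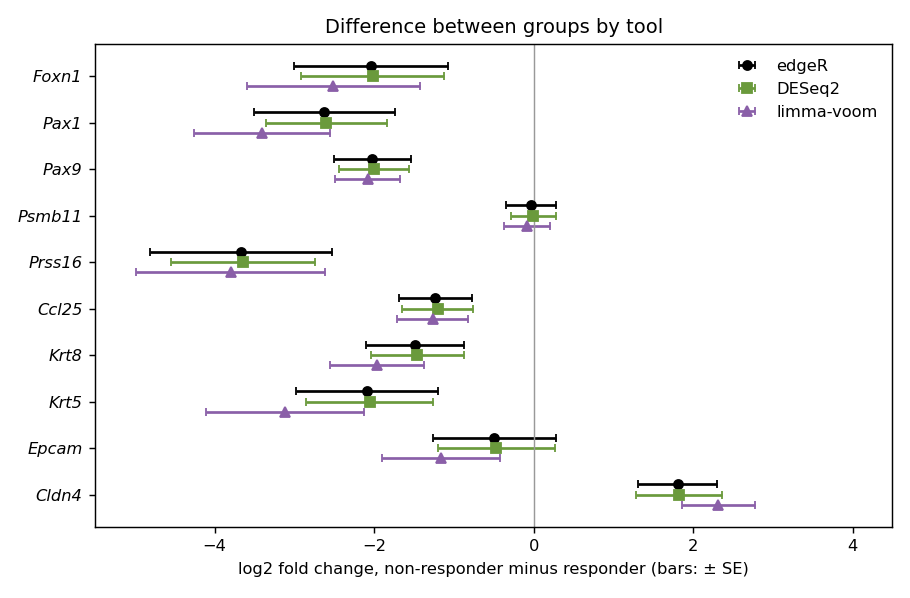
Log2 ratio, non-responder over responder (x axis), of the 10 genes from edgeR, DESeq2 and limma-voom; bars are ± SE. The estimates of edgeR run from -3.67 for Prss16 to 1.80 for Cldn4, with Psmb11 at -0.03.

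Signals exchanged between thymocytes and epithelium were described by 17 genes. Of these, 14 had a negative log2 ratio (median -1.40), 11 of them at an unadjusted edgeR p under 0.05, and 3 a positive one, all 3 at an unadjusted p under 0.05, with 0 past the adjusted threshold. DESeq2 called 7 as lower and limma-voom 3 as lower and 2 as higher. Ltb, the gene of lymphotoxin beta that lymphocytes use to act on medullary epithelium, was at 118 ± 90.4 CPM in responders against 15.1 ± 5.16 for non-responders (-2.97, SE 0.86, edgeR adjusted p = 0.117). Its level was 42.6, 13.3 and 7.85 CPM in responders 1 to 3, the responders with high Rag1, and 125.3 to 262.3 CPM in responders 4 to 8. Non-responders ran from 7.40 to 18.6 CPM, a range that held responders 2 and 3. Relb, a subunit of NF-kB that acts downstream of lymphotoxin and RANK, was at 26.5 ± 13.0 and 6.60 ± 1.18 CPM (-2.01, SE 0.45). Fgfr2, the receptor gene through which fibroblast growth factors expand the epithelium, was at 12.1 ± 8.30 and 1.99 ± 1.45 CPM (-2.60, SE 0.64). The 3 with a positive value were Notch1 (2.48, SE 0.95), Notch3 (1.32, SE 0.58) and Cxcr4 (0.80, SE 0.37), receptors carried by thymocytes, which are named here because they were so few. Notch1 was at 777.6, 1906 and 1495 CPM in responders 1 to 3 and at 73.4 to 127.8 CPM in responders 4 to 8. In non-responders Notch1 was at 900.4 to 6489 CPM, a range that held responders 2 and 3.

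Markers of other tissues and cell types also differed in mean level between the groups. Parathyroid tissue, which can lie beside or within the thymus, was represented by 3 genes, all with a negative log2 ratio (median -2.71). The parathyroid hormone gene Pth was at 37.9 CPM in responder 5 and 26.6 CPM in responder 4, but at 0.0422 CPM in responder 3 and 0 in responder 8. It was at 0.0459 to 0.782 CPM in non-responders (log2 ratio -5.20, SE 1.67, edgeR adjusted p = 0.119). Casr, on the same list, was at 0.127 to 3.84 CPM in responders, with responder 8 at 2.975 CPM, and at 0.0454 to 0.552 CPM in non-responders. The summed level of 5 mesothelial genes was 10.1 to 75.6 CPM in responders and 8.73 to 25.6 CPM in non-responders, with all 5 negative. The summed level of 10 lung epithelial genes was 8.72 to 60.4 and 8.21 to 22.02 CPM, with 7 of the 8 tested negative. Of the other tissues, 7 muscle genes summed to 13.4 to 488.7 CPM in responders and 5.69 to 19.6 CPM in non-responders, 6 fat genes to 3.33 to 1508 and 6.97 to 36.7 CPM, and 6 neutrophil genes to 20.1 to 655.4 and 3.26 to 20.5 CPM. Every tested gene of these 3 lists (7 muscle, 5 fat and 6 neutrophil) had a negative log2 ratio, with medians of -3.91, -3.99 and -5.17. The median over the 9 members without Cldn4 was -2.025. A negative log2 ratio in every gene also held for 5 endothelial genes (median -1.64, 139.2 to 524.1 and 86.4 to 146.7 CPM). So it did for 3 B-cell genes (median -2.62, 3.66 to 105.9 and 1.97 to 19.4 CPM) and 3 erythroid genes (median -3.43, 96.8 to 1593 and 10.6 to 232.1 CPM). It did not hold for fibroblast genes, of which 3 of 5 had a positive log2 ratio (median 0.25, 262.4 to 1483 and 387.7 to 1224 CPM). Nor did it hold for macrophage genes, of which 1 of 3 was positive (median -0.11, 118.9 to 467.6 and 107.8 to 269.8 CPM). DESeq2 called 7 muscle, 5 fat, 5 neutrophil, 3 endothelial, 3 B-cell, 3 erythroid, 2 fibroblast and 0 macrophage genes as lower, against 10.5% of all genes. None of these lists summed to 0 in any tumour, and the part of each tissue in the results was not tested. With the mean level of fat, muscle, neutrophil, fibroblast and endothelial genes as 1 covariate, the log2 ratios of Foxn1 and Krt5 were -1.97 and -2.27. Those of Pax1, Pax9 and Prss16 were -1.57, -1.52 and -2.96, and that of Cldn4 1.17, none past the threshold. The covariate was at 1.19 to 2.21 in non-responders and at 3.18 to 6.05 in responders except responder 8, at 1.64. It thus nearly followed the response label, so its part and that of response cannot be told apart by these ratios.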

How the data were processed

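RNA from 12 thymic lymphomas was sequenced as 75-base paired-end reads after TruSeq mRNA library preparation, per the labels' protocols. The authors deposited whole-number counts per Ensembl gene, used here as raw counts. The submitters' processing notes name HTSeq and DESeq, with no version or role. Those notes name NCBIM37 while the labels' protocols name mm10, so the build is unsettled. Neither an aligner nor strand use is stated. Symbols were matched by identifier (32919 of 37991), and 4 of 173 genes on the lists had no row matched. Positions are GENCODE M21 on GRCm38, 1-based.

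Groups were taken from the labels and each tumour is 1 replicate; p-values measure the spread between these tumours. Genes were filtered with filterByExpr, scaled by TMM and tested with edgeR 4.0.16 (quasi-likelihood, robust, group as the sole term, two-sided, Benjamini-Hochberg) in R 4.3.3. The test was also run on simulated counts with planted changes. Those counts did not hold the division of the tumours by Rag1, so they cannot show how the test behaves under it. DESeq2 1.42.0, limma-voom 3.58.1, an exact permutation test over 495 splits and the other alternatives are given in the closing section. Log2 CPM used a prior count of 2. CPM of single tumours carry counting error, and no molecular identifiers are named.

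The 10 genes and the gene lists were chosen with earlier results of these data known. Genes named are the 10, the 3 lowest p of each list, claudins by level, the 5 most like Foxn1, Epcam and Cldn4, Rag1 as the reference of double-positive thymocytes, Psmb5 and Psmb8 beside Psmb11, and those said to be picked later, among them Cd3e. Some are left unprinted.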

Additional observations from a re-analysis of the deposited data

Results flagged for a closer look

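Of 116 groups of values looked at (the members and other named genes, each in responders and in non-responders), 14 held a tumour that stood apart from its own group. The cut-off is one that chance passes in about 1 in 20 independent groups. Many of these genes varied together and some were named after their values were seen, so 14 of 116 is no test against chance. The values in CPM are given with the nearest other tumour of the group, and no cause was tested. Epcam was 79.2 in non-responder 3 (next 17.2). Responder 3 stood apart for 4 genes: Cldn4 at 35.2 (next 16.02), Krt4 at 43.7 (next 0.745), Krt13 at 47.2 (next 0.415) and Lmln at 8.14 (next 5.1). Responder 4 did so for Trp63 at 28.8 (next 14.5), Dclk1 at 64.3 (next 30.8) and Avil at 31.4 (next 12.4). Esrp2 was 9.35 in responder 1 (next 6.12). Non-responder 2 had Krt4 at 0.196 (next 0.138), both close to the level of 3 counts, and Cldn5 at 3.63 (next 1.82). Fgfr2 was 4.14 in non-responder 3 (next 1.56), and Cldn10 was 6.29 in non-responder 1 (next 2.58). Ltb was lowest in non-responder 4, at 7.4 (next 16.9).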

How the results depend on the processing

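No paired analysis was possible because the labels give no replicate number shared between the groups. edgeR called 0 genes at an adjusted p under 0.05, against 2462 by DESeq2 and 1723 by limma-voom, and 0 to 5 with 1 tumour left out (5 without responder 3, 3 without non-responder 1, 1 without non-responder 3). At an unadjusted p under 0.05 the count of 4428 was 1290 with the double-positive thymocyte score as covariate, 1360 with the other-cell score, and 3224 to 5534 with 1 tumour left out. Log2 ratios that passed in DESeq2 were -2.60 for Pax1, -1.998 for Pax9, -3.65 for Prss16, -1.21 for Ccl25 and 1.82 for Cldn4, and in limma-voom -3.41 for Pax1, -2.08 for Pax9 and 2.32 for Cldn4. Psmb11 changed sign with no filter (0.038), with the thymocyte score (0.008) and with the other-cell score (0.095), and lay between -0.242 and 0.129 with 1 tumour left out (0.08 without responder 1, 0.043 without responder 4, 0.02 without non-responder 3, 0.129 without non-responder 4). Epcam changed sign with the thymocyte score (0.629) and the other-cell score (0.068). Without non-responder 3 the log2 ratios of Foxn1, Pax1, Prss16, Krt8, Krt5 and Epcam were larger in size, as given beside each. Those of Pax1 (-3.41), Krt5 (-3.119) and Epcam (-1.164) were also larger in size in limma-voom, and that of Krt5 in the permutation test (-2.948). With the thymocyte score the ratios of Foxn1 (-1.098) and Krt5 (-0.873) were smaller in size, and that of Prss16 (-4.018) was larger. The cause was not tested. The other 8 members kept their sign under all alternatives run, and no member passed edgeR's threshold with 1 tumour left out. Low counts limit Foxn1, Pax1 and Prss16 most: in non-responder 2 they had 0, 0 and 1 counts.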
